A study of Mus musculus with 42 samples.

Results

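Genes of the mitochondrial respiratory chain and the ATP synthase were followed in mouse cells on the way from the blastocyst's inner cell mass (ICM) to embryonic stem cells (ESCs). They were taken by symbol, as all genes that begin with Nduf (complex I), the 4 Sdh genes (complex II), and those that begin with Uqcr (complex III), with Cox4 to Cox8 (complex IV) or with Atp5 (complex V, the ATP synthase). These rules found 91 symbols, of which 87 were among the 19057 genes of the first array type and 85 among the 16593 of the second. Expression was measured on Illumina bead arrays in 2 runs. In the first, 18 arrays of BALB/c material held ICM, an ESC line and, between them, outgrowths of whole blastocysts sampled from day 3 (BO-3) every second day up to day 9 (BO-9), with 3 replicates each. In the second, 22 arrays of hybrid material held ICM, outgrowths of isolated ICMs named by their day in culture, with IO-0.5 the earliest at day 0.5, 3 samplings on days 1 to 3 and IO-5 the latest, ESCs at passages 2, 4 and 15 (P2, P4, P15) and control outgrowths on days 1 and 3 (SBIO-1, SBIO-3), with 2 replicates each. The labels say only that this material is hybrid. Beside B6 x C3H F1 hybrids, the study also lists crosses of such F1 mice with CD1 males and with OG2 mice, which carry an Oct4-GFP reporter. Its list covers this run and other experiments together, so the cross behind each array is not known. All BOs, IOs and ESCs grew in R2i, a serum-free medium with 1 µM PD0325901 (PD, an inhibitor of MEK), SB431542 at 10 µM (SB, which blocks type I receptors of TGF-β) and 1000 U/ml LIF, whereas the SBIO samples had SB and LIF without PD. ICMs were freed from the trophectoderm by immunosurgery and taken without culture, each ICM, BO and IO sample was a pool of many ICMs or outgrowths, the ESCs were passaged cultures, and the small RNA amounts were amplified over consecutive rounds before labelling. The BALB/c ESCs were taken at a later passage than P15. Strain, array type, start material and ESC passage differ together between the runs and cannot be told apart, so each run was normalized and tested alone.

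Respiratory complexes I to IV pass electrons from NADH and succinate to oxygen and, except for complex II, pump protons across the inner mitochondrial membrane, and complex V uses the proton gradient to make ATP. Most subunits are encoded in the nucleus, and these are the ones measured here, since neither array type gave a tested probe for the 13 subunits encoded by mitochondrial DNA. Early mouse embryos depend on respiration of pyruvate, the blastocyst adds a strong use of glucose, and naive ESCs use both glycolysis and respiration. For complex IV several subunits exist as isoforms of different tissues, so that the set of isoforms is a known mark of a cell type.

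A promoter window from RefSeq, build GRCm38.p6, of 300 bases (250 before and 50 after the annotated start) was at hand for 75 of the 91 symbols, 5 of them with over 1 window. These genes are known targets of the nuclear respiratory factors, so 5 motifs were searched on both strands in the 80 windows and in the 21262 windows of all protein-coding genes. NRF1 letters (GCGCA and GCGC with any 1 base between them) were found in 23.8% of member windows and 6.38% of all, CCGGAAG of GABP in 23.8% and 11.6%, and AANATGGC of YY1 in 23.8% and 6.37%. TNAAGGTCA of the estrogen-related receptors was found in 3.75% and 1.03%, and GGGCGG of SP1 in 45.0% and 46.2%. At least 1 of the first 3 motifs stood in 49 of the 80 member windows, 61.3% against 21.4% of all windows, and matches of different motifs shared a base in 1 member window. The windows of 4 genes are shown, with matches to any of the 5 motifs in capitals. Cox6b2 and Cox6b1 are isoforms of a complex IV subunit whose courses differed, Ndufa7 rose most in complex I in the first run, and Uqcrc1 fell from P2 to P15 in the second. They lie at chr7:4753045-4753344 (minus strand), chr7:30626065-30626364 (minus), chr17:33824395-33824694 (plus, the second of 2 windows of Ndufa7) and chr9:108936398-108936697 (plus), and are written in the direction of transcription.
Cox6b2: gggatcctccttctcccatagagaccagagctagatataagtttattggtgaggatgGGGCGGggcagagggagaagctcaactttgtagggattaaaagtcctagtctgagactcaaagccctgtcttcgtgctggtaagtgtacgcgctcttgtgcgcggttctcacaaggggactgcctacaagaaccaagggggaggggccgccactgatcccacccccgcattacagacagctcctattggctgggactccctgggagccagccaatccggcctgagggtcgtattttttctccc
Cox6b1: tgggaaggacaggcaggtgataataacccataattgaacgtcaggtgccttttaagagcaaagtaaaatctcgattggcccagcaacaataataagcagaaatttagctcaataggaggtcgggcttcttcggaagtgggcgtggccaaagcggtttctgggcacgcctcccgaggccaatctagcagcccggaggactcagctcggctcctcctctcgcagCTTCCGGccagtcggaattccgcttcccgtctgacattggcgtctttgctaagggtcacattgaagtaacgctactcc
Ndufa7: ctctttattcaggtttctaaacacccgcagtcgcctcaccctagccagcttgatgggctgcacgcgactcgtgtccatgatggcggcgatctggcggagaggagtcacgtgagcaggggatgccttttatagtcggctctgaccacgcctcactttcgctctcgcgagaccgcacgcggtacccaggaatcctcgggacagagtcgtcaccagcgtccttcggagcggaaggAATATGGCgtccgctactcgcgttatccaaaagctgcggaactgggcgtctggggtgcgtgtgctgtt
Uqcrc1: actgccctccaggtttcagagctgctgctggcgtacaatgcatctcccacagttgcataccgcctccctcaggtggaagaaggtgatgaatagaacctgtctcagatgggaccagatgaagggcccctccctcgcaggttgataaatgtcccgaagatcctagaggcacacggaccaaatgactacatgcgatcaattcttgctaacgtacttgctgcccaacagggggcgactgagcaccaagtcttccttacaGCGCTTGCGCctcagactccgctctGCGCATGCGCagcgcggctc
The Cox6b2 window held 1 match, to SP1, the Cox6b1 window 1 to GABP, the Ndufa7 window 1 to YY1 and the Uqcrc1 window 2 to NRF1. The first window of Ndufa7, not shown, held no match to any of the 5 motifs. A match says only that the letters are there.

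Intensities were corrected for background and quantile normalized within a run, so that a value is the log2 of the normalized intensity of a probe, and values of different probes are not compared. To be tested, a gene needed a probe detected on 2 or more fitted arrays (detection p below 0.05), which left 80 members of 11450 genes in the first run and 76 of 10013 in the second. The test was limma's moderated test with p values adjusted by Benjamini-Hochberg over all genes tested. Calls needed both a 2-fold change or more and an adjusted p up to 0.05 (first run) or 0.01 (second run), the limits the study set. The members that were not tested included Ndufs1, a core subunit of complex I, on both array types, Sdha, the flavoprotein of complex II, in the first run, and Uqcrq, Atp5o and Ndufb11 in the second. The tissue isoforms Cox4i2, Cox7b2, Cox8b and Cox8c had no array with a detection p under 0.05 in either run, and Cox6a2, the muscle isoform of Cox6a, had 7 of 17 arrays in the first run and 1 of 22 in the second. Of the tested members 73 and 63 were detected on every array fitted. On the arrays fitted 28.9% to 35.4% of all probes were detected in the first run and 18.0% to 45.6% in the second, lowest on the hybrid ICM arrays. These 2 arrays were also the dimmest, with a 95th percentile of the raw intensity of 135 and 173, against 261 to 2363 on the other 20. The study describes 2 replicates of BO-3, so its replicate 1 was not fitted.

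From ICM to ESC in the first run, members rose more often than they fell. Of the 80 tested, 12 were called higher and 1 lower, where 13.9% of all genes were called higher and 11.7% lower. By the adjusted p alone 30 were higher and 12 lower, 37.5% and 15.0% of members, where the shares over all genes were 26.2% and 23.2%. On 38 members the ESC arrays all lay above the ICM arrays and on 14 all below, where 30.0% and 26.7% of all genes did. The median difference of the members was 0.30 (log2), against 0.00 over all genes, and with each array centred on its median in place of quantile normalization it was 0.19 against -0.14. Complex IV had the highest median, 0.65, with 5 of its 12 tested members called higher. Complex I had a median of 0.26, complex III 0.29 and complex V 0.26, and the 3 tested members of complex II had -0.57. On the plot of the complexes by array, complex IV lay at -0.50, -0.29 and -0.38 on the ICM arrays and at 0.70, 0.57 and 0.59 on the ESC arrays, as the mean of its genes each centred on its mean over the run. Since a pool of cells was measured, fewer cells of a type and less RNA per cell cannot be told apart. Markers of other cell types moved with the same comparison. Of 10 trophectoderm markers tested 8 were lower in ESCs, where their mean log2 ran from 6.22 to 7.37, against 9.50 to 9.59 in ICM, and of 8 endoderm markers 6 were lower. Naive epiblast markers were detected 10 of 10 on every ICM and ESC array of this run. The part of the markers in the members' values was not tested.

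**Figure D1:**
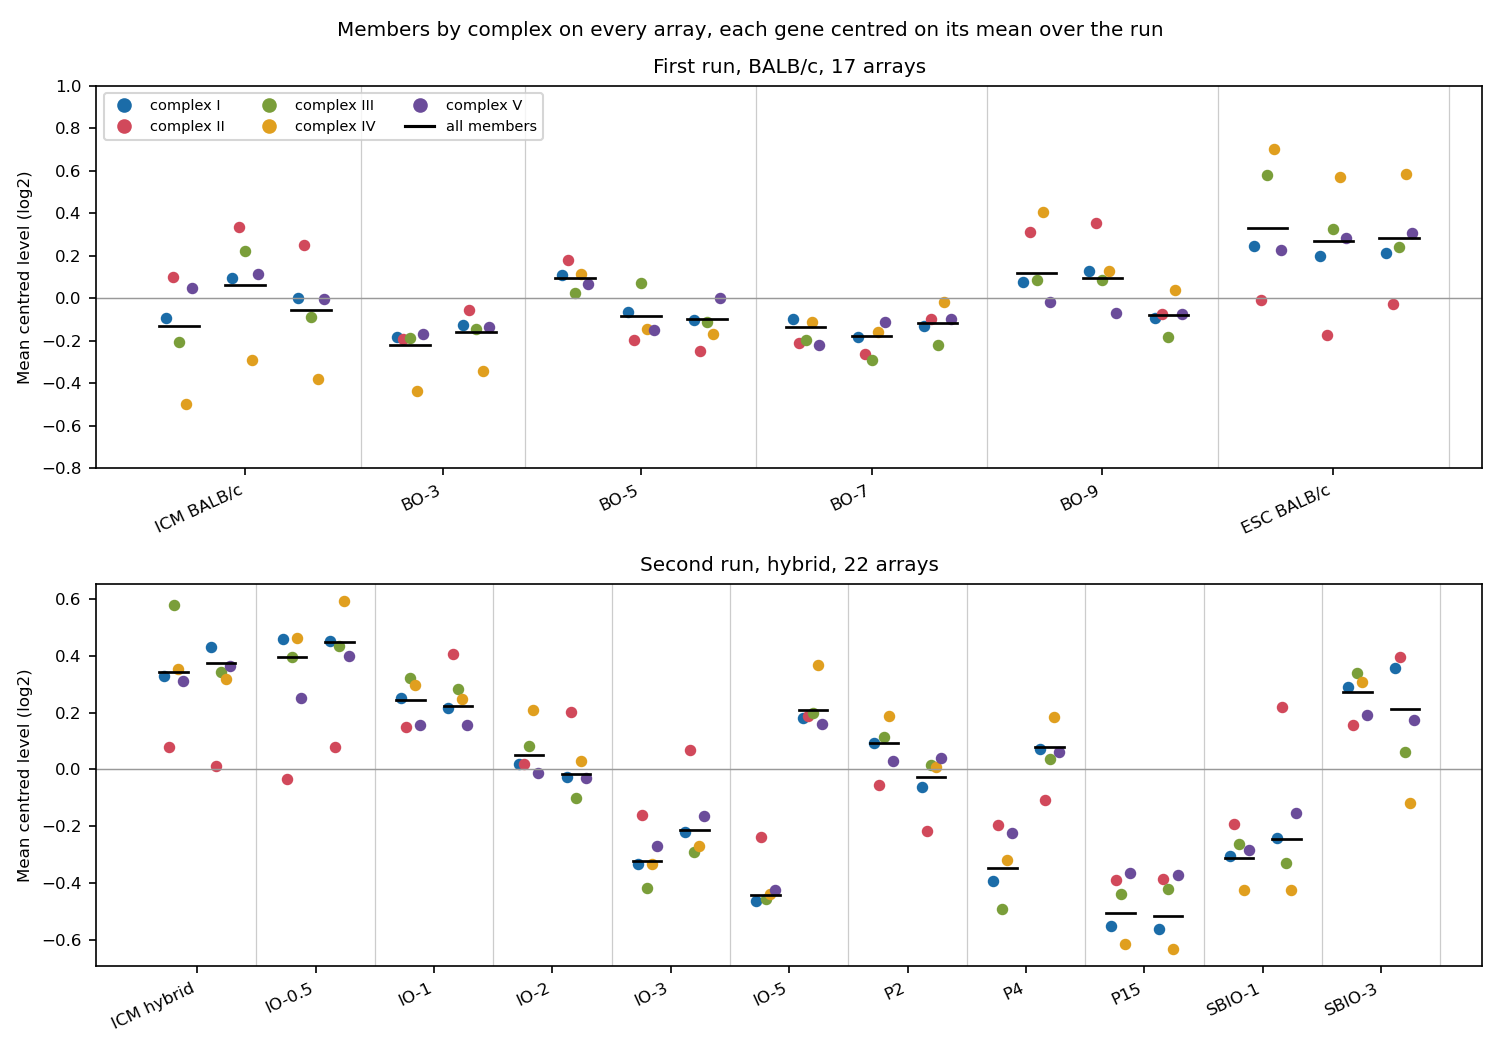
Mean level of the tested members on every array fitted, with each gene centred on its mean over the run (log2, y axis). Points are complexes I to V and short lines all members, with arrays in their sample groups. Complex IV is the lowest complex on each ICM array of the first run and the highest on each ESC array, and in the second run all members lie at -0.44 and 0.21 on the IO-5 arrays.

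Cox6b2, the isoform of complex IV subunit VIb known from testis, was called higher in ESCs than in ICM in both runs, and in the first its rise was the largest of all members. There it was at 4.46, 4.28 and 4.52 in ICM, where no array detected it. It was at 6.14 and 6.38 in BO-3, at 6.98, 7.00 and 7.67 in BO-5, at 7.09, 7.48 and 7.82 in BO-7, at 8.22, 7.43 and 8.18 in BO-9 and at 9.13, 8.63 and 8.86 in ESCs. Neither BO-3 nor ESC overlapped ICM, and each later BO group overlapped the one before it except for BO-5, which lay above BO-3. Against the lowest detected signal on the ICM arrays, Cox6b2 had risen at least 2.62-fold by day 3 (adjusted p = 2.71e-05, limma) and was at least 16.0-fold higher in ESCs (adjusted p = 7.91e-11, limma). Between BO-3 and BO-9 it rose by a further 1.68 ± 0.27 (log2, SE, adjusted p = 3.72e-04, limma), the only member called in that comparison, where 2.32% of all genes were called higher and 3.10% lower.

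In the second run Cox6b2 was at 4.35 and 4.40 in the hybrid ICM, again not detected, and at 6.55 and 6.39 in IO-0.5. It was at 7.01 and 6.71 in IO-1, 7.98 and 7.29 in IO-2, 7.48 and 6.86 in IO-3, and 7.98 and 9.18 in IO-5. In the ESCs it was at 8.24 and 7.75 in P2, 7.29 and 7.12 in P4, and 7.65 and 7.67 in P15. Every cultured array lay above both ICM arrays. The adjusted p was 0.00326 for IO-0.5 and 3.37e-05 for P15 against ICM (limma). On the dim ICM arrays the lowest detected signal was high, so that P15 was at least 1.68-fold higher and no fold can be given for IO-0.5. In the medium without PD, Cox6b2 was at 5.89 and 5.60 in SBIO-1 and at 7.08 and 5.18 in SBIO-3. It was higher in R2i by 1.11 ± 0.49 on day 1 and by 1.04 ± 0.49 on day 3 (log2, SE), with adjusted p values of 0.234 and 0.141 (limma), so neither difference passed the test. The rise of Cox6b2 from ICM to ESC was called with the same sign in each of the 18 alternatives run on the first run and the 16 on the second, whereas the rise to IO-0.5 was called in 6 of 16.

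Cox6b1, the isoform of the same subunit found in most tissues, followed another course. In the first run it lay between 11.27 and 11.83 on every ICM and BO array and at 12.96, 12.18 and 12.37 in ESCs, 2.00-fold above ICM and 2.06-fold above BO-9 (adjusted p = 1.94e-04 and 2.81e-04, limma). In the second run it was at 12.52 and 12.61 in ICM and at 11.39 and 11.40 in P15, a fall by 1.16 ± 0.21 (log2, SE, adjusted p = 1.64e-04, limma), but with each array centred on its median it was 1.10 higher in P15. The direction for Cox6b1 in the second run thus turned with the scaling, and that for Cox6b2 did not.

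**Figure D2:**
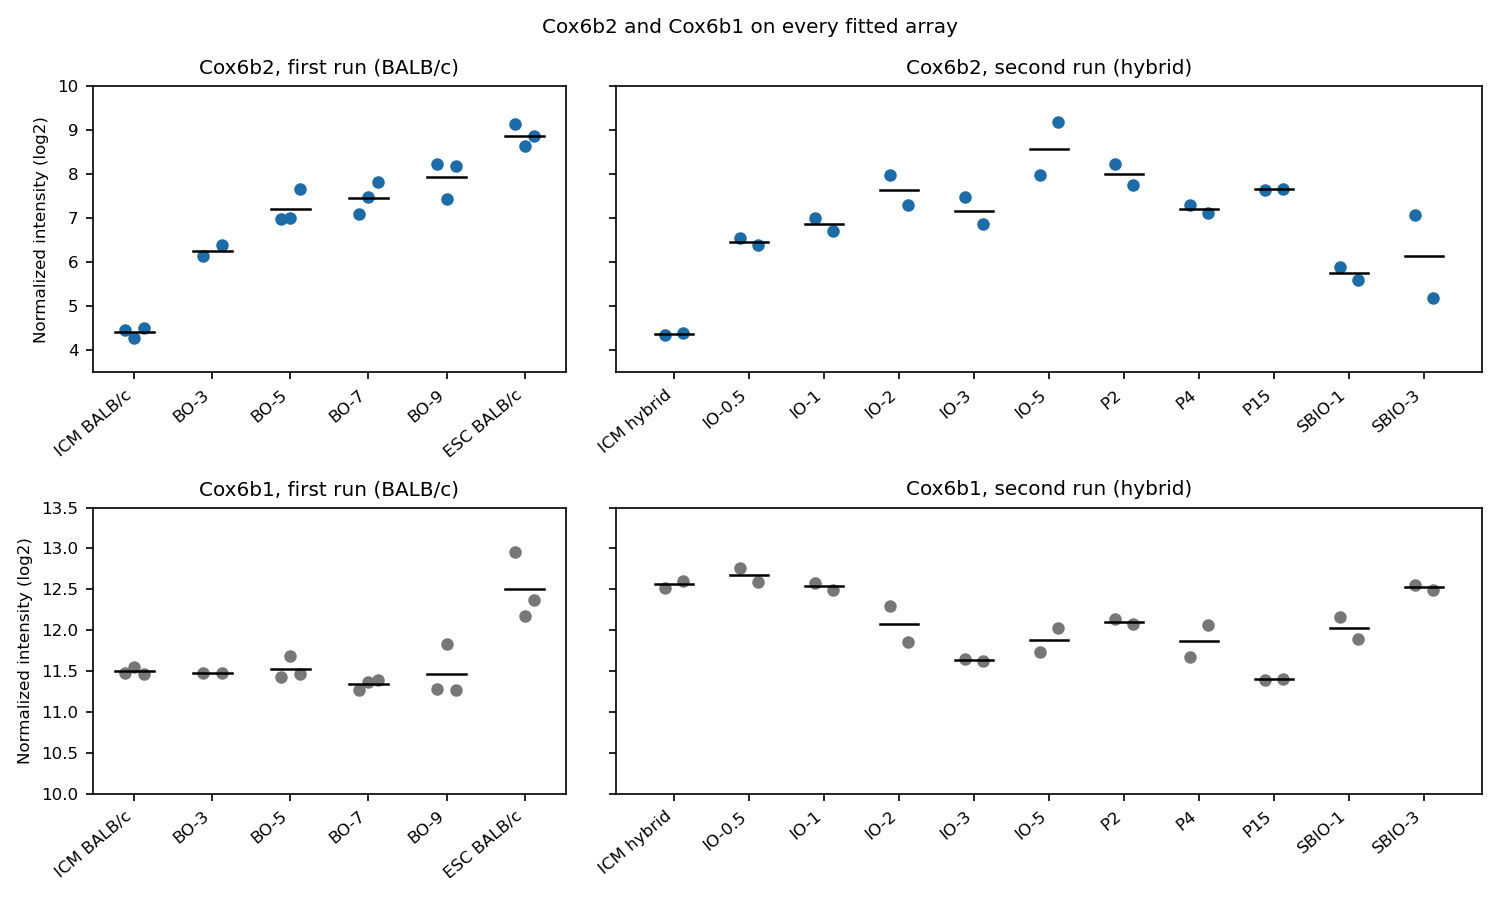
Normalized intensity (log2, y axis) of Cox6b2 (upper row) and Cox6b1 (lower row) on every array fitted, by sample group, with points for arrays and lines for group means. The rows have different y axes, since levels of different probes are not compared. Cox6b2 lies at 4.28 to 4.52 on all ICM arrays and at 8.63 to 9.13 in the ESCs of the first run.

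Among the other isoforms of complex IV, Cox7a1, known from heart and skeletal muscle, rose from 4.98, 5.54 and 5.06 in ICM to 7.04, 6.71 and 6.79 in the BALB/c ESCs, 3.15-fold (adjusted p = 6.10e-06, limma). The BO arrays lay between 5.06 and 6.52, so that the ESC arrays overlapped none of them. Its counterpart Cox7a2, found in most tissues, rose 2.16-fold in the same comparison (adjusted p = 5.98e-05), from 7.37, 7.59 and 8.00 to 8.96, 8.75 and 8.59. Cox7b, which has no tissue isoform in this list but the undetected Cox7b2, rose 3.92-fold, from 6.70, 7.01 and 6.97 in ICM to 8.94, 8.92 and 8.73 in ESCs (adjusted p = 2.88e-07, limma). It lay between 6.98 and 8.00 in the BOs and was 2.27-fold higher in ESCs than in BO-9 (adjusted p = 1.93e-04). Cox4i1, the isoform of subunit IV found in most tissues, was at 12.66, 12.87 and 12.86 in ICM and at 13.07, 12.69 and 12.96 in ESCs, and these groups overlapped. Cox6a2 was at 4.29 to 4.51 in ICM and 4.23 to 4.46 in ESCs, and its BO-7 arrays, at 5.40, 5.05 and 5.02, and BO-9 arrays, at 5.12, 5.20 and 4.80, lay above both.

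In complex I, Ndufa7, an accessory subunit, was at 8.37, 8.48 and 8.60 in ICM, between 8.73 and 9.55 in the BOs and at 10.50, 10.68 and 10.55 in ESCs. The ICM and ESC arrays overlapped no other group, and ESCs were 4.27-fold above ICM (adjusted p = 8.19e-09, limma) and 2.16-fold above BO-9 (adjusted p = 4.30e-05). Ndufv3, an accessory subunit of the NADH-binding module, rose 2.54-fold from ICM to ESC, from 9.33, 9.56 and 9.37 to 11.11, 10.54 and 10.65. Ndufb6 and the assembly factor Ndufaf4 rose 2.17-fold and 2.20-fold, and the largest adjusted p of these was 3.77e-05 (limma). Ndufa1, an accessory subunit of the membrane arm, had risen by day 3. It was at 10.53, 10.80 and 10.79 in ICM, at 11.86 and 11.79 in BO-3, between 11.78 and 12.29 in the later BOs and at 11.81, 12.17 and 11.99 in ESCs, so that all cultured arrays lay above ICM. Of the members of complex III and complex V, Uqcrh, the hinge protein of complex III, rose 2.41-fold (adjusted p = 7.68e-06) and Atp5l, subunit g of the ATP synthase, 2.17-fold (adjusted p = 0.0416). Atp5l varied within groups, with BO-9 arrays at 7.07, 5.06 and 6.64.

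Ndufb10 was the only member called lower in ESCs than in ICM, with 8.78, 9.25 and 8.98 in ICM and 8.04, 7.17 and 7.35 in ESCs, but its probes did not agree. The probe with the higher mean fell by 1.48 ± 0.24 (log2, SE) and the other rose by 2.62 ± 0.18, both past the test (adjusted p = 6.80e-05 and 2.72e-09, limma over probes). With the mean of both probes the gene was 0.57 higher, so no direction is given for Ndufb10. In complex II, Sdhc, a membrane anchor, was at 9.88, 10.11 and 9.97 in ICM and at 9.43, 8.96 and 9.17 in ESCs, a difference of -0.79 that passed the adjusted p (0.00512, limma) but not the 2-fold limit. Sdhd, the other anchor, was at 8.81, 9.22 and 9.00 against 8.34, 8.29 and 8.68, a range with no overlap, and Sdhb, the iron-sulfur subunit, at 7.96, 8.02 and 8.12 against 8.54, 8.56 and 8.40.

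The steps within the first run were uneven. From ICM to BO-3 only 4 of 80 members were called, 2 in each direction, where 13.0% of all genes were called higher and 7.48% lower. Cox6b2 and Ndufa1 were called higher, Ndufa8 and Ndufb10 lower. Ndufb10 rests here on the probe that its other probe opposed from ICM to ESC, so no direction is given for it. Of 10 trophectoderm markers 4 were called higher and 2 lower here, and of 8 endoderm markers 4 and 1, and their part was not tested. Ndufa8, an accessory subunit of complex I, went from 10.21, 10.55 and 10.44 in ICM to 9.27 and 9.17 in BO-3, 2.27-fold lower (adjusted p = 0.00141, limma). The median of the members was -0.14 against -0.02 over all genes, and -0.27 against -0.26 with median centring. No member was called between consecutive BO days (limma). Of all genes 0.183% were called higher and 0.323% lower from BO-3 to BO-5, 0.349% and 0.253% from BO-5 to BO-7, and 0.253% and 0.681% from BO-7 to BO-9. At an unadjusted p under 0.05, 6 members were higher and 0 lower in the first of these steps, 1 and 6 in the next and 20 and 0 in the last. Of 80 members this is 25.0% higher in the last step, where 7.13% of all genes were higher and 6.58% lower at this p. With median centring the members' median in that step was 0.03 against 0.01 over all genes. In the first step 3.94% of all genes were higher and 4.89% lower, and in the next 5.80% and 4.64%. From BO-9 to ESC, 6 members were called higher and none lower, where 4.79% of all genes were called higher and 8.86% lower. These were Cox7b, Ndufa7, Ndufaf2, Ndufb6, Cox6b1 and Ndufaf4. In the same comparison 8 of 10 trophectoderm markers were called lower, with a median of -2.76 (log2), and 7 of 8 endoderm markers, with a median of -3.32. The trophectoderm mean log2 lay between 9.02 and 9.72 in BO-9 and between 6.22 and 7.37 in ESCs, that of the endoderm between 9.10 and 9.33 and between 5.32 and 7.31. Their part in the members' values was not tested. By the adjusted p alone 24 members were higher and 5 lower, 30.0% and 6.25%, against 16.1% and 19.0% of all genes, and the median difference was 0.15 against 0.01 (0.33 against 0.14 with median centring).

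**Figure D3:**
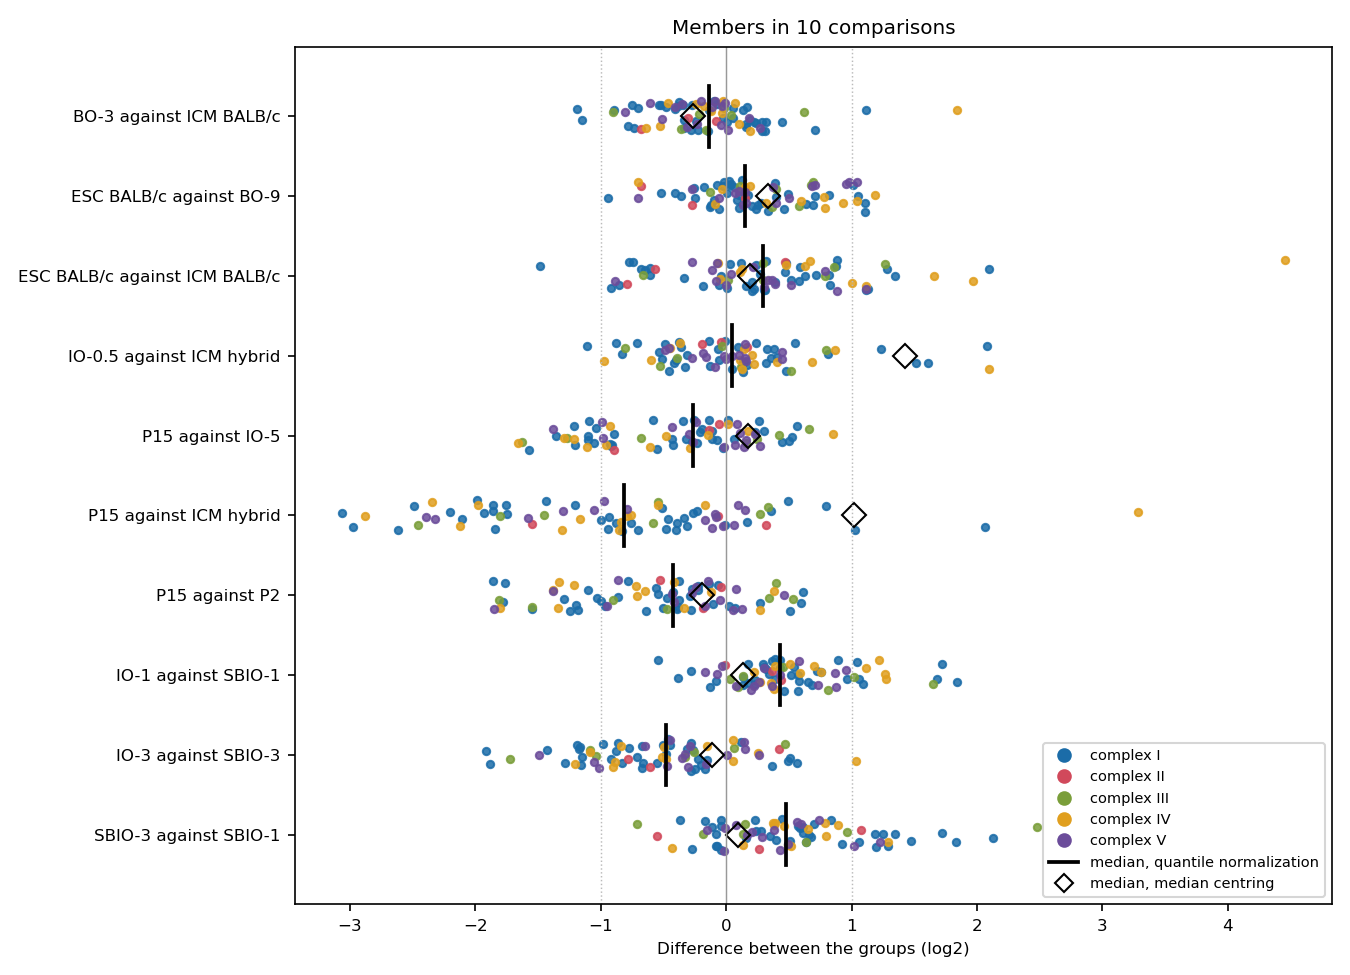
Difference between groups (log2, x axis) for every tested member in 10 comparisons, coloured by complex, with 80 members in the first 3 and 76 in the others. Bars are medians with quantile normalization, diamonds are medians with each array centred on its median, and dotted lines mark 2-fold. The median of P15 against the hybrid ICM turned from -0.81 to 1.02 with the scaling, and that of P15 against P2 went from -0.42 to -0.19.

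In the second run replicates of some groups differed in brightness and in the level of the members. The direction of several comparisons turned with the scaling. In 7 of the 11 groups the brighter of the 2 replicates had the lower members' level, and in 4 the higher one. The largest such gap was in IO-5, where replicate 1 had a 95th percentile of 2251 and members at -0.44, and replicate 2 had 578 and 0.21, although both were outgrowths of one day and medium. In P4 the replicates had 2363 and 1528 with members at -0.35 and 0.08. In IO-1 they had 1110 and 362 with members at 0.22 and 0.24, and in SBIO-3 673 and 261 with 0.21 and 0.27. All genes together lay between -0.11 and 0.04 on every array, but quantile normalization gives arrays the same distribution and so holds this range narrow. The dim hybrid ICM arrays had members at 0.34 and 0.37, and the bright P15 arrays at -0.51 and -0.52. The part of the brightness in the values below was not tested.

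**Figure D4:**
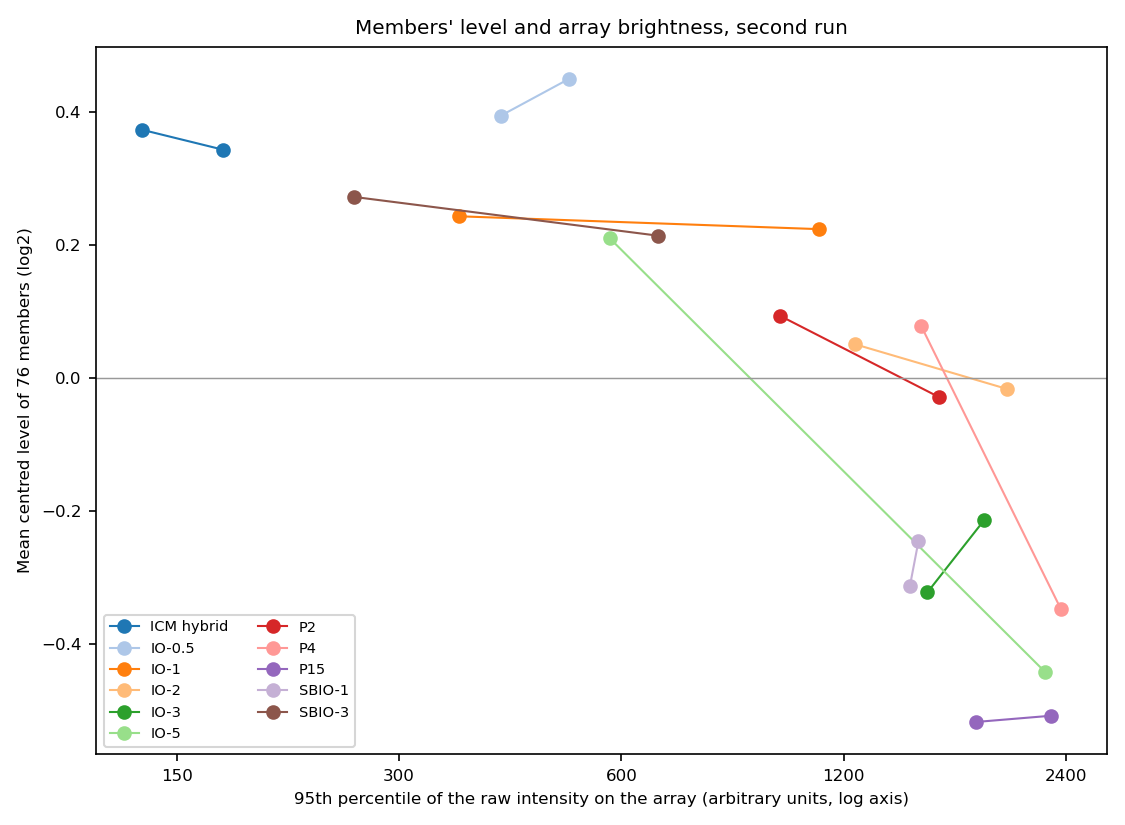
Mean level of the 76 tested members (each gene centred on its mean, log2, y axis) against the 95th percentile of the raw intensity (arbitrary units, log x axis) on each of the 22 hybrid arrays. A line joins the 2 replicates of a group. The IO-5 replicates lie at 2251 and 578 on the x axis and at -0.44 and 0.21 on the y axis.

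Against the hybrid ICM, P15 had 29 of 76 members called lower and 2 higher, where 23.9% of all genes were called lower and 24.2% higher, with a median of -0.81 against 0.04 over all genes, but with each array centred on its median the members' median was 1.02 against 0.04, with 38 called higher and 4 lower, where 35.3% and 31.4% of all genes were called under that scaling. By complex 15 of 38 members of complex I, 1 of 3 of complex II, 3 of 7 of complex III, 6 of 13 of complex IV and 4 of 15 of complex V were called lower under quantile normalization, and none of the 5 Ndufaf assembly factors. Endoderm markers, of which 6 of 9 were called lower, had a mean log2 of 4.80 to 4.82 in P15 and 7.97 to 8.10 in ICM, and their part in the result was not tested. Of the 29 members lower under quantile normalization, 8 kept the sign and 1 the call (Ndufb7, which neither group detected), and 4 were called in the opposite direction. The largest falls under quantile normalization were those of Ndufc1, an accessory subunit of complex I, at 10.57 and 10.67 in ICM and 7.71 and 7.42 in P15, of Ndufs7, a core subunit that carries an iron-sulfur cluster, at 12.06 and 12.26 against 9.11 and 9.27, and of Cox6a1, the isoform of subunit VIa found in most tissues, at 11.44 and 11.54 against 8.51 and 8.71. With median centring their differences were -0.67, -0.68 and -0.45, and none was called. Ndufa3 and Ndufs8 fell by 2.62 and 2.49 (log2) and by 0.17 and 0.01 in turn. The rise of Cox6b2 was called with both scalings. Ndufaf7, an assembly factor that methylates a core subunit of complex I, was at 4.73 and 4.61 in ICM, where it was not detected, and at 6.72 and 6.76 in P15 (adjusted p = 2.90e-06, limma), and was higher but not called with median centring. For Sdhb and Sdhc the probes of a gene were called in opposite directions here, from -2.51 to 1.07 and from -1.55 to 1.11.

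The isoforms differed from each other in the second run as well. Cox7a1 was at 7.76 and 8.15 in the hybrid ICM, at 6.91 and 7.06 in IO-0.5, between 5.36 and 6.05 from IO-1 to IO-5, at 6.81 and 6.73 in P2 and at 6.75 and 6.55 in P15. In the SB medium it was at 5.54 and 5.58 on day 1 and at 4.88 and 5.37 on day 3. Under quantile normalization the course thus went down from ICM and was higher again in the ESCs. In the raw intensities Cox7a1 was low on the dim ICM arrays, at 98.7 and 98.8 where the array medians were 82.7 and 82.4. It was at 255 and 194 in P15, so the high ICM level is seen only after normalization. In the first run the BALB/c ICM had the lowest group mean, with BO arrays that overlapped it. P15 lay below ICM by 1.31 ± 0.30 (log2, SE, adjusted p = 0.00126, limma), but was 0.23 higher with median centring. Cox7a2 was at 9.05 and 8.67 in ICM and 8.20 and 8.43 in P15 (adjusted p = 0.173), a difference that did not pass the test. Cox8a, the isoform of subunit VIII found in most tissues, was at 12.61 and 12.70 in ICM and 10.27 and 10.34 in P15, and the difference was -2.35 under quantile normalization and -0.16 under median centring.

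The 3 genes Atp5g1, Atp5g2 and Atp5g3 encode the same mature subunit c, of which the proton-driven ring of the ATP synthase is built. Atp5g3 was at 13.75 and 13.72 in the hybrid ICM and at 13.90 and 13.69 in P15, and lay between 13.69 and 14.21 on all 22 arrays. Atp5g1 was at 12.02 and 12.12 in ICM and at 9.76 and 9.74 in P15, a fall of 2.32 ± 0.37 (log2, SE, adjusted p = 6.23e-05, limma) that became 0.05 higher with median centring. Atp5g2 went from 11.64 and 11.75 to 10.69 and 10.60 and turned in sign with median centring to 1.56. In the first run Atp5g2 was at 9.33, 9.62 and 9.67 in ICM and 10.13, 10.43 and 10.71 in ESCs, 0.88 higher (adjusted p = 5.38e-04) and under the 2-fold limit, and Atp5g3 at 13.93, 14.04 and 13.97 against 14.06, 14.24 and 14.28. Of complex II in the second run, Sdhc was at 10.55 on both ICM arrays, at 9.63 and 9.41 in P2 and at 9.00 and 8.99 in P15, called lower than ICM under quantile normalization but 1.01 higher with median centring. Another probe of Sdhc was called in the opposite direction from ICM to P15, so no direction is given for Sdhc. Sdhd was at 9.19 and 9.39 in ICM and at 9.20 and 9.24 in P15, and its replicates within a group stood apart, with 8.17 and 9.47 in SBIO-1.

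In IO-0.5, 4 of 76 members were called higher than in ICM and none lower, where 11.6% of all genes were called higher and 12.2% lower. They were Cox6b2, Ndufaf7, Ndufaf4 and Ndufc2, an accessory subunit of complex I. Of 10 trophectoderm markers 8 were called higher in the same comparison, with a median of 1.99 (log2) and mean levels of 9.68 and 9.80 (log2) on the IO-0.5 arrays against 7.68 and 7.80 in ICM, and their part was not tested. The ICM arrays did not detect Cox6b2, Ndufaf7 or Ndufc2, and 1 of them detected Ndufaf4, so no fold is given. Ndufaf7 was at 6.65 and 6.85 in IO-0.5, against 4.73 and 4.61 in ICM. Ndufc2 was at 5.63 and 6.31, against 4.52 and 4.39. Ndufaf4 was at 8.87 and 9.04, against 8.32 and 6.36. The count was 1 without ICM replicate 2 or IO-0.5 replicate 2, and 2 without IO-0.5 replicate 1. With median centring 47 members were called higher and none lower, where 23.1% and 0.0699% of all genes were called, and the median went from 0.05 to 1.42, while that of all genes went from 0.04 to 0.11. No member was called in any consecutive step from IO-0.5 to P15 (limma). Of all genes 2.14% were called higher and 1.26% lower from IO-0.5 to IO-1, 1.31% and 0.489% to IO-2, 0.00999% and 0.0899% to IO-3, 0.0799% and 0.0799% to IO-5, 0.0799% and 1.24% to P2, 0.130% and 0.190% to P4, and 0.110% and 0.220% to P15. At an unadjusted p under 0.05 no step had more than 2 members higher, where 3.33% to 10.3% of all genes were higher. The steps to IO-3, P4 and P15 had 11, 9 and 22 members lower, 14.5%, 11.8% and 28.9% of them, where 8.11%, 10.4% and 9.43% of all genes were lower. The share in the step to P4 was thus near that of all genes. With median centring the members' median was -0.08 in the step to IO-3, against 0.15 over all genes. It was 0.15 against 0.07 in the step to P4, and -0.37 against -0.05 in the step to P15.

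Between ESC passages, P15 had 10 members called lower than P2 and none higher, where 7.25% of all genes were called lower and 5.56% higher. The brightness of these arrays was closer, with 984 and 1615 in P2 and 2289 and 1815 in P15. The median was -0.42 against 0.00 over all genes, and -0.19 against -0.02 with median centring, where all 10 kept their sign and 6 their call. Under that scaling 8 members (10.5%) were called lower and none higher, where 7.84% of all genes were called lower and 10.2% higher. The 6 were Atp5d, Cox5b, Ndufa3, Ndufb10, Ndufs7 and Uqcrc1. Ndufb10 rests here on the probe that its other probe opposed in the first run, so no direction is given for it. Uqcrc1, a core protein of complex III, was at 11.12 and 11.35 in P2, 9.67 and 9.91 in P4 and 9.52 and 9.32 in P15, a fall of 3.52-fold from P2 (adjusted p = 5.34e-04, limma). Cox5b, a subunit of complex IV found in all tissues, was at 11.75 and 11.62, then at 10.55 and 11.48, and then at 10.03 and 9.73, 3.48-fold lower in P15 than in P2. Atp5d, the delta subunit of the F1 part of the ATP synthase, was at 10.11 and 10.54, then at 9.23 and 9.63, and then at 8.67 and 8.28, 3.61-fold lower. In each of these genes the P15 arrays lay below all P2 and P4 arrays. The median of complex IV was -0.71, of complex I -0.45, of complex III -0.47, of complex V -0.24 and of complex II -0.19, while the 5 Ndufaf assembly factors had 0.27. All arrays of P15 lay below those of P2 for 50 members and above for 11, where 36.9% and 36.3% of all genes did. The count depended on single arrays, with 1 member called without P15 replicate 2 and 4 without P15 replicate 1, P2 replicate 1 or P2 replicate 2. Against IO-5, P15 had 9 members called lower and none higher, where 6.99% of all genes were called lower and 4.99% higher, with a median of -0.27 against -0.04 over all genes. These were Cox5b, Uqcrc1, Ndufs7, Atp5d, Ndufa12, Ndufv1, Ndufa1, Ndufa8 and Ndufa10, which fell by 1.66 to 1.09 (log2). Of 9 endoderm markers 7 were called lower in P15, with a median of -4.77 (log2), and 5 of 10 trophectoderm markers, with a median of -1.36. The endoderm mean was 8.35 and 8.82 (log2) on the IO-5 arrays and 4.80 and 4.82 in P15, that of the trophectoderm 7.63 and 7.80 against 5.70 and 5.75, and their part was not tested. The count was 16 without the bright replicate 1, 1 without the dim replicate 2, 4 and 0 without P15 replicate 1 and 2, and 0 with median centring, where all 9 kept the sign but the members' median was 0.17.

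The media were compared on days 1 and 3. On day 1, 1 of 76 members was called, Ndufs4, an accessory subunit of complex I, which was 2.14-fold higher in R2i (adjusted p = 0.00379, limma), where 1.60% of all genes were called higher and 0.919% lower. Its arrays were at 11.26 and 11.00 in IO-1 and at 10.00 and 10.07 in SBIO-1. On day 3, 4 members were called lower in R2i and none higher, where 4.85% of all genes were called lower and 6.20% higher. They were Ndufa5, Ndufa2, Ndufa1 and Atp5d, and with median centring none of these was called, while 4 other members (Cox6b2, Ndufaf1, Ndufaf5 and Ndufv2) were called higher in R2i, where 11.6% of all genes were called higher and 7.46% lower. Ndufa5, an accessory subunit of the matrix arm, was at 7.90 and 8.31 in IO-3 and at 10.01 and 9.97 in SBIO-3, 3.70-fold lower in R2i (adjusted p = 0.00721), and on day 1 at 9.74 and 9.44 in IO-1 against 7.93 and 7.81 in SBIO-1. In the SB medium 5 members were called higher on day 3 than on day 1 and none lower, where 3.44% of all genes were called higher and 3.69% lower. These were Uqcrh, Ndufa5, Ndufa2, Ndufa1 and Ndufs4. Uqcrh was at 6.59 and 6.32 in SBIO-1 and at 9.36 and 8.51 in SBIO-3, 5.58-fold higher (adjusted p = 0.00518, limma). These counts were small and moved with single arrays. On day 1 it was 0 without IO-1 replicate 1, SBIO-1 replicate 1 or SBIO-1 replicate 2. On day 3 it was 0 without either IO-3 replicate and 2 without SBIO-3 replicate 2, and in the SB medium it was 0 without either SBIO-1 replicate and 2 without either SBIO-3 replicate. Without regard to the test, the R2i arrays of day 1 all lay above the SB arrays for 51 members and below for 5, where 25.3% and 29.3% of all genes did. On day 3 they lay above for 8 and below for 44 (32.7% and 30.0% of all genes), and in the SB medium day 3 lay above day 1 for 41 and below for 8 (27.7% and 31.0%). With median centring the members' median was 0.13 on day 1 in place of 0.43, -0.11 on day 3 in place of -0.48 (all genes -0.17) and 0.10 in the SB medium in place of 0.48 (all genes 0.14), with Uqcrh kept as a call in the last.

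The difference between the media changed from day 1 to day 3 for 9 members, all toward lower values in R2i on day 3 (interaction term in limma), where 4.37% of all genes were called in that direction and 5.80% in the other. The largest terms were those of Ndufc1, Ndufa5 and Uqcrh. Ndufc1 was at 10.23 and 9.63 in IO-1 and 7.67 and 8.52 in SBIO-1, and at 7.88 and 8.14 in IO-3 and 9.98 and 9.87 in SBIO-3. R2i was thus above SB by 1.84 ± 0.51 on day 1 and below it by 1.92 ± 0.51 on day 3 (log2, SE), and neither single difference passed 0.01 (adjusted p = 0.0495 and 0.0141, limma), while the term did (adjusted p = 0.00218). The median term over the members was -1.11 against 0.01 over all genes, and -0.19 against -0.15 with median centring, where all 9 kept the sign and 3 the call, Ndufa5, Ndufc1 and Uqcrh. Without IO-3 replicate 1 the count was 2, without IO-1 replicate 1 or SBIO-1 replicate 1 it was 4, and without SBIO-1 replicate 2 it was 5. Brightness moved with the groups here as well. The 95th percentile was 362 and 1110 in IO-1, 1475 and 1515 in SBIO-1, 1558 and 1860 in IO-3 and 261 and 673 in SBIO-3. So did the trophectoderm markers, of which 7 of 10 were called higher in R2i on day 1 and 6 lower on day 3, and 7 higher in the SB medium on day 3 than on day 1. Their mean log2 was 9.87 to 10.12 in IO-1, 7.83 to 7.89 in SBIO-1, 8.30 on both arrays of IO-3 and 9.57 to 9.74 in SBIO-3. The other markers differed between the media too. The endoderm mean was 9.30 to 9.45 in IO-1, 10.47 to 10.53 in SBIO-1, 9.02 to 9.08 in IO-3 and 10.72 to 10.75 in SBIO-3. In the same order the naive epiblast mean was 9.10 to 9.39, 8.54 to 8.70, 8.92 to 9.15 and 6.69 to 7.22. The part of these markers in the result was not tested.

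**Figure D5:**
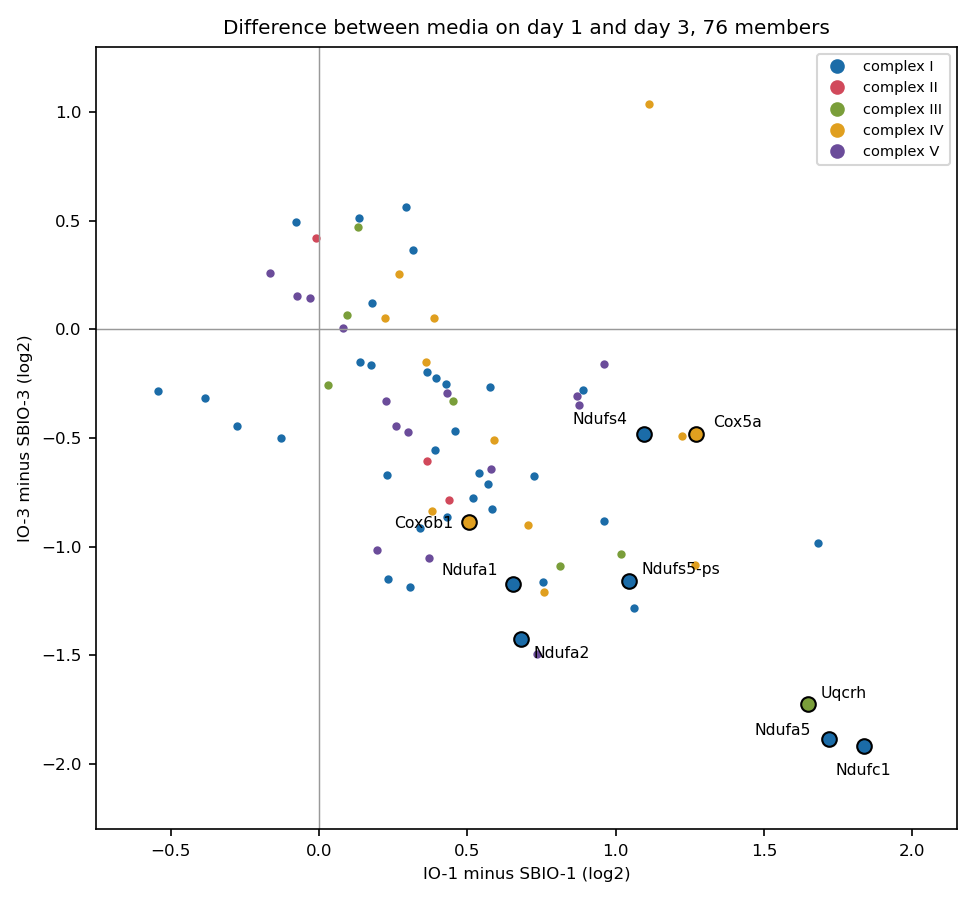
Difference between R2i and SB medium (log2) on day 1 (IO-1 minus SBIO-1, x axis) and on day 3 (IO-3 minus SBIO-3, y axis) for the 76 tested members, coloured by complex, with the 9 members whose differences changed past the test named and outlined. Ndufc1, Ndufa5 and Uqcrh lie at 1.65 to 1.84 on day 1 and at -1.92 to -1.72 on day 3, and Cox6b2 is the point above 1 on both axes.

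Set side by side, the runs gave the members different directions from ICM to ESC under quantile normalization. Of 72 members tested in both, 43 were higher in the BALB/c ESCs and lower in P15, 7 higher in both, 17 lower in both and 5 lower and then higher. These are 59.7%, 9.72%, 23.6% and 6.94% of members, where of 9208 genes tested in both 18.9%, 32.3%, 29.1% and 19.7% did so. Called in both were 5 members (6.94%), against 15.5% of all genes, and 3 of these 5 went in opposite directions (Cox6b1, Cox7a1 and Ndufv3), 4.17% of members against 2.51% of all genes, while Cox6b2 was called higher in both. The difference between the runs was not tested. With median centring the members' median was above that of all genes in both, 0.19 in the first run and 1.02 in the second. The second value is taken against the hybrid ICM arrays, the dimmest of that run, and the part of the brightness in it was not tested.

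Genes around the respiratory chain were counted in lists of their own. Of 7 tested genes that turn cells between respiration and glycolysis, 6 were called higher in BALB/c ESCs than in ICM and none lower, with a median of 1.84 (log2) against 0.00 over all genes. Ldha, which makes lactate from pyruvate, rose 12.5-fold, Pdk1, a kinase that shuts the pyruvate dehydrogenase, 5.20-fold, and Pdk3, another such kinase, which ICM arrays did not detect, at least 12.3-fold. Of all genes 13.9% were called higher and 11.7% lower there. In BO-3 4 of the 7 were already called higher, against 13.0% of all genes, with Ldha 13.0-fold up. In the second run 8 of 9 were called higher in P15 than in the hybrid ICM, against 24.2% of all genes, with Ldha 9.44-fold up. The pyruvate dehydrogenase and citric acid cycle had 4 of 16 genes called lower in BALB/c ESCs, among them Ogdh, Pdhb and Sucla2, and none higher, and of 16 in P15 3 were called in each direction, below the 23.9% and 24.2% of all genes. Of 32 partners and assembly factors outside the chosen symbols 5 were higher and 4 lower in the BALB/c ESCs, near the shares of all genes, and of 17 regulators of mitochondrial biogenesis 4 were higher and 3 lower.

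The second run held 2 BALB/c ICM arrays beside the hybrid ones, which the study does not describe for this run. Fitted together with the 22 hybrid arrays, they left 78 members tested. They were brighter than the hybrid ICM arrays, with a 95th percentile of 923 and 803 and 37.9% and 37.1% of probes detected. With them as the start, P15 had 2 members called higher and 11 lower. These are 2.56% and 14.1% of members, where 11.5% and 11.2% of all genes were called. The members' median was -0.36 (log2) against -0.02 over all genes. Cox6b2 was at 4.77 and 4.85 on them, where it was not detected either, and had a mean of 7.61 in P15 of this fit (adjusted p = 0.000193, limma). Cox7a1 was at 5.37 and 5.86 on the BALB/c ICM arrays and 2.30 ± 0.30 (log2, SE) higher on the hybrid ICM arrays (adjusted p = 1.54e-05, limma), and against the BALB/c ICM, P15 lay 0.99 ± 0.30 above it (adjusted p = 0.0153), short of the limit of 0.01. The hybrid ICM level rests on low raw intensities of 98.7 and 98.8 on dim arrays. The hybrid ICM arrays had 12 members called higher than the BALB/c ICM arrays and 1 lower, where 16.5% and 16.8% of all genes were called, with a median of 0.52. Against the BALB/c ICM arrays, IO-0.5 had 7 members called higher and none lower, where 5.68% of all genes were called higher and 6.83% lower. Strain and array brightness cannot be told apart in this comparison.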

How the data were processed

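Each array was a separate pool of amplified RNA, and where no label states separate litters or cultures the p values measure the spread between these samples. In the deposited tables of each run the authors gave, per probe and array, the raw intensity exported from GenomeStudio and its detection p-value. The deposited log2 values of each array had been made by the authors with limma from these intensities by background correction and quantile normalization. Versions are not given in the sources used here. Recomputed log2 values correlated with the deposited ones at 0.9999975 or more in the first run and 0.9999649 or more in the second, after a constant of 4.127 to 4.153 that the authors had subtracted. That constant cancels in differences and is not subtracted in the levels given here.

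From the raw intensities, neqc (normexp with detection p values, offset 16, quantile normalization) was run per run with limma 3.58.1 in R 4.3.3. Genes of the array annotation were each represented by the detected probe with the highest mean log2 value over the run's fitted arrays, and several probes of a gene were also fitted apart. A linear model with a mean per group was fitted per run, to 17 BALB/c arrays and to 22 hybrid arrays, with moderated variances (11 residual degrees of freedom) and Benjamini-Hochberg adjustment over all genes tested. The levels set for calls follow the study's own. Where a group detected a probe on no array, the fold was taken against the lowest detected signal on those arrays and is given as at least that fold, and no fold is given where it is under 1 or neither group detected the probe. The 2 BALB/c ICM arrays on the second array type were left out of the main fit. Arrays, not reads, were measured, so their number limits the precision. Probe annotation gave 45281 probes on the first array type and 25697 on the second, and Ndufs5-ps is annotated as a pseudogene whose probe may also bind its parent gene.

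The members, lists and tests were chosen with earlier results of these data known. Genes named were the called members of each comparison (all, or the 5 largest in a direction), the member with the widest range per complex, the tissue isoforms of complexes IV and V, the Sdh genes and members whose probes were called in opposite directions. The model was tested on simulated data. Alternatives were median centring, no background correction, an offset of 50, the deposited log2 values, no filter on detection or a stricter one that asks for more arrays, the mean of all probes, array weights, a fit of only the arrays compared, a replicate block, each array left out, a limit of 0.01 in the first run, BO-3 replicate 1 included, and the BALB/c ICM arrays on the second array type included or taken as the start. Promoter windows and figures were made with Python 3.11.15, pandas 2.3.3 and matplotlib 3.10.9.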

Additional observations from a re-analysis of the deposited data

Results flagged for a closer look

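For 9 members the difference between R2i and SB medium changed from day 1 to day 3 by a test of the change itself (interaction term, limma, adjusted p of at most 0.01), where 4.37% of all genes were called in this direction. The changes were -3.75 for Ndufc1, -3.61 for Ndufa5, -3.37 for Uqcrh, -2.20 for Ndufs5-ps, -2.11 for Ndufa2, -1.82 for Ndufa1, -1.75 for Cox5a, -1.58 for Ndufs4 and -1.39 for Cox6b1 (log2). Each had a higher group mean in R2i on day 1 and a lower one on day 3. With each array centred on its median, Ndufa5, Ndufc1 and Uqcrh kept the call at -2.16, -2.33 and -2.17. Under that scaling 6 members were called in this direction and 3 in the other, where 17.2% and 15.9% of all genes were. With quantile normalization no member changed past the test in the other direction, and for Cox6b2 the change was -0.08 (adjusted p = 0.956, limma).

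For 30 of the 72 members tested in both runs, 41.7% against 16.1% of all genes, the ESC and ICM arrays of each run did not overlap and the direction differed between the runs. Of the members named above 12 did so, and Cox6b1, Cox7a1 and Ndufv3 were called in both runs. Cox6b1 differed by 1.00 in the first run and -1.16 in the second, Cox7a1 by 1.66 and -1.31 and Ndufv3 by 1.35 and -1.86 (log2). Called in the first run only were Atp5l (1.12 and a measured -0.97), Cox7a2 (1.11 and -0.55), Ndufa1 (1.28 and -0.34), Ndufa7 (2.10 and -0.39), Ndufb6 (1.12 and -0.40) and Uqcrh (1.27 and -0.54). Neither the hybrid ICM arrays nor the P15 arrays detected Atp5l, so its second value is a difference between undetected signals. In the second run only, Atp5g2 (0.88 and -1.05), Cox6a1 (0.48 and -2.88) and Ndufaf7 (-0.61 and a measured 2.07 over ICM arrays that did not detect it) were called. The difference between the runs was not tested, and strain, array type, start material, ESC passage and brightness, which differ between them, cannot be told apart. With median centring 9 of the 12 second values turned in sign, and those of Atp5l, Cox6a1 and Ndufaf7 did not.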

How the results depend on the processing

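Of the counts of called members, the numbers under alternatives beyond 1.5 times the reported one were as follows, and the causes were not tested. For BO-3 against ICM (reported 4) no background correction gave 2. For ESC against BO-9 (6) median centring gave 10 and no background correction 3, and for ESC against ICM (13) the mean of all probes gave 8 and no background correction 7. For IO-0.5 against ICM (4) the BALB/c ICM arrays gave 7, array weights 1, a fit of only the arrays compared 0, median centring 47, no background correction 0 and an offset of 50 gave 2. For IO-1 against SBIO-1 (1) array weights and an offset of 50 gave 2, and only the arrays compared and median centring 0. For IO-3 against SBIO-3 (4, all lower) array weights and only the arrays compared gave 0 and no filter 2, and median centring gave 4 other members, all higher. For P15 against ICM (31, of which 29 lower) the BALB/c ICM arrays gave 13. Median centring kept its total within 1.5 times but turned the direction, with 38 higher and 4 lower. For P15 against IO-5 (9) only the arrays compared gave 1 and median centring 0. For P15 against P2 (10) array weights and only the arrays compared gave 19. For SBIO-3 against SBIO-1 (5) array weights gave 1, only the arrays compared 0, median centring 2 and no filter 3. For the change of the medium difference (9, all lower) BALB/c ICM arrays in the fit gave 15, no background correction 17 and an offset of 50 gave 14. Median centring gave 6 lower and 3 higher there, a total within 1.5 times. The alternatives for P15 against P2, for the change of the medium difference and with the BALB/c ICM arrays were chosen after seeing the data. With 1 array left out, the counts were 4 to 6 (BO-3 against ICM), 6 to 8 (ESC against BO-9), 11 to 13 (ESC against ICM), 1 to 3 (IO-0.5 against ICM), 0 to 1 (IO-1 against SBIO-1), 0 to 3 (IO-3 against SBIO-3), 25 to 33 (P15 against ICM), 0 to 16 (P15 against IO-5), 1 to 4 (P15 against P2), 0 to 2 (SBIO-3 against SBIO-1) and 2 to 10 (change of the medium difference). A group cut to 1 array was assumed to vary like the others. With the replicate number as a block the counts were 4, 6, 13, 3, 1, 4, 32, 9, 10, 5 and 10 in the same order, all within 1.5 times the reported ones. The labels do not say whether numbers pair arrays, and deviations from group means correlated at -0.315 to 0.408 between same-numbered arrays of the first run (median 0.034, against -0.031 for other numbers) and at -0.478 to 0.471 in the second (0.009 against -0.009). With 2 arrays in each group of the second run, the values for other numbers mirror those for the same numbers, so they are no control there. Ndufb10 in ESC against ICM turned from -1.48 to 0.57 with the mean of all probes. In P15 against ICM, median centring turned Atp5g1 to 0.052, Atp5g2 to 1.56, Cox6b1 to 1.10, Cox7a1 to 0.23, Ndufv3 to 0.68 and Sdhc to 1.01, and the BALB/c ICM arrays turned Cox7a1 to 0.99. Of the other values of called members that the text names, 994 kept direction and call and 302 kept direction and lost the call. Dim hybrid ICM arrays limit the second run, since they detected 18.0% and 24.2% of probes.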
